A study of Mus musculus with 4 samples.

Results

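The gene Glp1r and 9 genes that lie near it on mouse chromosome 17 are described here: Taf11, Srpk1, Mtch1, Pim1, Rnf8, Zfand3 and Glo1 on one side of it, and Tmprss3 and Rsph1 on the other, in the gene order of the reference assembly GRCm38.p6. They are 10 of the 13840 genes that the array's probes name with a single symbol, and each has 1 probe. The genes were picked by symbol with the strain difference of these same arrays already known, so their values between strains are given as a description. Where one of them is said to be called, this was known when it was picked and supports nothing. Stomach RNA of male mice on chow, food deprived for 4 h, was hybridised to 4 single-colour arrays. Congenic pools 1 and 2 came from B6.CAST-17 mice, which are homozygous for a chromosome 17 segment of the wild-derived CAST strain on the C57BL/6J (B6) background, and wild-type pools 1 and 2 came from C57BL/6J mice. Each pool combined equal amounts of RNA from 3 animals, so single animals cannot be told apart, and neither end of the CAST segment is given in the sources used here. Each difference below is the mean of the congenic pools minus that of the wild-type pools in log2 units, with its SE after ±. The SE is that of limma, which draws each probe's variance toward that of other probes of similar signal. There are 2 pools behind each mean, and this small number limits the precision.

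Glp1r encodes the receptor for glucagon-like peptide 1, a gut hormone cut from proglucagon. The receptor couples through a stimulatory G protein to adenylyl cyclase and cyclic AMP, and in the digestive tract its activation is known for slowing the emptying of the stomach, in large part through nerves. The study's title names variation in the expression of this gene. The neighbours have unrelated roles: a subunit of a general transcription factor (Taf11), kinases (Srpk1, Pim1), a mitochondrial outer membrane protein (Mtch1), a DNA damage ubiquitin ligase (Rnf8), a zinc finger protein (Zfand3), a detoxifying enzyme (Glo1), a membrane protease (Tmprss3) and a cilium component (Rsph1).

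Of the 10 genes, 9 had a value on all 4 arrays and 1, Glp1r, did not. Among the 9, Taf11 and Mtch1 read lower in both congenic pools, and Srpk1, Pim1, Rnf8, Glo1, Tmprss3 and Rsph1 read higher in both. Zfand3 overlapped between the strains. Pools of the strains did not overlap for 8 of the 9, with 6 higher and 2 lower in the congenic pools. The same held for 49.4% of all 13475 probes with a value on every array, 23.4% higher and 26.1% lower. In the fit across those probes (limma, Benjamini-Hochberg adjusted p under 0.05) 0.475% of probes were called, 0.289% higher and 0.186% lower in the congenic pools. Srpk1, Pim1 and Glo1 were among the higher calls and Taf11 and Mtch1 among the lower, which was known when they were picked.

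**Figure D1:**
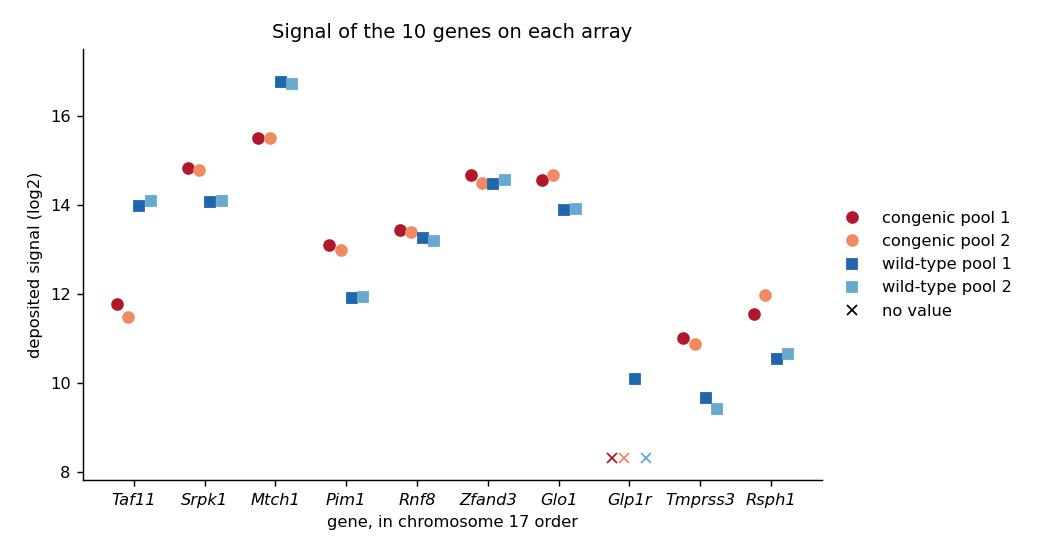
Deposited log2 signal (vertical axis) of the 10 genes in chromosome 17 order, with 1 point per array: circles are the congenic pools, squares the wild-type pools, and a cross stands for an array with no value. Glp1r has a value, 10.08, in wild-type pool 1 alone, while Taf11 lies at 11.48 and 11.78 in the congenic pools and at 13.98 and 14.09 in the wild-type pools.

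Glp1r had the value 10.08 in wild-type pool 1, and no value in wild-type pool 2 or in either congenic pool. No strain difference can be formed for it, and a blank cell is not read as an absent transcript. Blank cells were common at this signal: of 1123 other probes within 0.25 of the Glp1r value in wild-type pool 1, 31.3% were blank in congenic pool 1, 29.8% in congenic pool 2 and 37.3% in wild-type pool 2. The 3 other arrays were all blank for 165 of these probes (14.7%), and 523 (46.6%) had a value everywhere. Over the whole table, 932 of 33012 probes had a value in wild-type pool 1 alone, 973 in congenic pool 1 alone, 971 in congenic pool 2 alone and 863 in wild-type pool 2 alone, so a value on a single array was about as frequent for each of the 4 arrays. By contrast 198 probes had values in both wild-type pools and neither congenic pool, and 419 the opposite. The Glp1r pattern is neither of these, since the wild-type pools themselves disagreed.

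**Figure D2:**
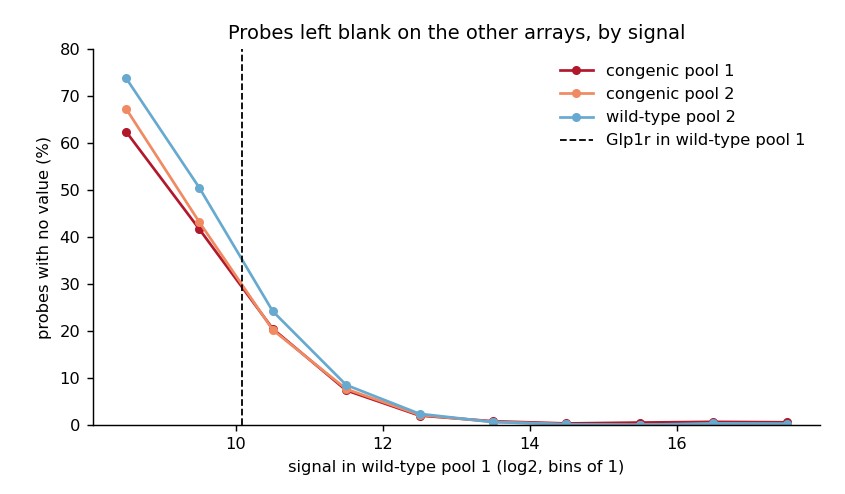
Percentage of probes with no value on each of the other arrays (vertical axis) by their signal in wild-type pool 1 (horizontal axis, log2, bins of 1), with 1 line per array and the Glp1r value dashed. For signals from 10 to 11, 20.5%, 20.2% and 24.2% of probes were blank in congenic pool 1, congenic pool 2 and wild-type pool 2, and from 12 to 13 between 1.97% and 2.35%.

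The nearest annotated genes around Glp1r were also sparsely measured. Dnah8, an axonemal dynein heavy chain, and Umodl1 were blank on all arrays. Abcg1, a transporter that exports cellular cholesterol, read 10.87 and 11.49 in congenic pools 1 and 2 and was blank in both wild-type pools. Farther out, between Tmprss3 and Rsph1, Ubash3a had values in congenic pool 2 (9.55) and wild-type pool 1 (10.13) only. It encodes a regulator of T cell receptor signalling. The closest genes with a value on every array were Glo1 on one side and Tff2, which encodes a mucus-associated trefoil peptide, on the other. Tff2 read 19.79 and 19.35 in congenic pools 1 and 2 and 19.29 and 19.58 in wild-type pools 1 and 2, so its strains overlapped (0.14 ± 0.17, limma adjusted p = 0.72).

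The sequences just before the start of transcription are shown for Glp1r, whose expression the study is about, for Glo1, the nearest neighbour measured throughout, and for Mtch1 and Pim1, a neighbour that read lower and one that read higher in the congenic pools. They are the C57BL/6J reference sequences of RefSeq (GRCm38.p6), 250 bases long and written towards the start site. Glp1r lies at chr17:30901617-30901866 (plus strand), Glo1 at chr17:30612660-30612909 (minus strand), Mtch1 at chr17:29347933-29348182 (minus strand) and Pim1 at chr17:29490535-29490784 (plus strand). Capitals mark the GC box letters GGGCGG on either strand (CCGCCC on the other), with overlapping matches joined.
Glp1r: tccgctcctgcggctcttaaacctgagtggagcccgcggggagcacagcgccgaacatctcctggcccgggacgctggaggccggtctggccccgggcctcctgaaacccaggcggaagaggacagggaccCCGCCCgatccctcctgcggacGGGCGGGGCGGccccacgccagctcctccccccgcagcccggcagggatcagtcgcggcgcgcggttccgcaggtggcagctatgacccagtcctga
Glo1: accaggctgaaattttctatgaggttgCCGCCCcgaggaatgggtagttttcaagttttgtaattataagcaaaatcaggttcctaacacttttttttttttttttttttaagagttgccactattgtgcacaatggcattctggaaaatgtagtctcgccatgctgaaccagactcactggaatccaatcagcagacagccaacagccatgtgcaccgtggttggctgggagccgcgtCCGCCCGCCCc
Mtch1: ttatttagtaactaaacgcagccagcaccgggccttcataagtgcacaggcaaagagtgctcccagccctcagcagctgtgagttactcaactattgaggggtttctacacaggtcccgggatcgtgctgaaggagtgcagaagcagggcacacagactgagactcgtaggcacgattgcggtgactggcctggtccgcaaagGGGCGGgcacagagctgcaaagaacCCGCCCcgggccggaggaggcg
Pim1: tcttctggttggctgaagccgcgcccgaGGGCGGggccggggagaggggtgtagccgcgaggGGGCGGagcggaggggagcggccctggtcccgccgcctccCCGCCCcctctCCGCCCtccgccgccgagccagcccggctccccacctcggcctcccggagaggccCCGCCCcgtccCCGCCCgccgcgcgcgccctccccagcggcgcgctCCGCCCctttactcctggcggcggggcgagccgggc
The windows of Glp1r and Glo1 held 3 matches each, overlapping ones counted separately, that of Mtch1 2 and that of Pim1 7. Of the 10 genes, 9 had a promoter entry, and 8 of these 9 held a GC box, all but Tmprss3, against 32.7% of 32851 promoter windows of the same length. None of the 9 held the TATA letters TATAAA on either strand (12.4% of all windows) or the cyclic AMP response element letters TGACGTCA (1.55%). The windows of the 9 held between 8 (Glo1) and 36 (Pim1) CG dinucleotides, each above the median of 6 over all windows. These counts describe letters in the reference and say nothing of binding in the stomach or of the CAST sequence. The 9 genes are protein-coding, and no share over protein-coding genes alone was computed, so the contrast with all windows may reflect gene type. For Taf11, Mtch1, Pim1 and Tmprss3, 2 starts are listed and the window of 1 was used. In the window of Taf11, on the minus strand, RefSeq also places the start of Anks1 on the plus strand, so these genes run away from each other from neighbouring starts.

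Taf11 encodes a subunit of TFIID, the factor that places RNA polymerase II at promoters. It read 11.78 and 11.48 in congenic pools 1 and 2 and 13.98 and 14.09 in wild-type pools 1 and 2. Both congenic pools were low, and the strains were separated by 2.20, against gaps of 0.30 and 0.11 between pools of a strain. The difference was -2.40 ± 0.14, a signal 5.30-fold higher in wild type. Only 14 of the 13475 probes, Taf11 included, differed by as much in either direction. Any CAST variant in the sequence read by this probe, or by the probes of the genes below, was not analysed. Anks1, an ankyrin repeat adaptor protein whose start lies in the Taf11 promoter window, went the other way in sign, reading 13.72 and 13.35 in the congenic pools and 13.22 and 13.15 in the wild-type pools, without passing (0.35 ± 0.14, limma adjusted p = 0.31).

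Mtch1, a carrier-like protein inserted in the mitochondrial outer membrane, read 15.51 and 15.50 in the congenic pools and 16.75 and 16.72 in the wild-type pools. Its pools agreed closely, with gaps of 0.0100 and 0.032 within strains and 1.21 between them. The difference was -1.23 ± 0.068, a signal 2.35-fold higher in wild type, and 72 probes differed by at least this amount. Taf11 and Mtch1 were the only ones of the 9 genes with a value on all arrays that read lower in both congenic pools.

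Pim1 encodes a serine/threonine kinase that cytokine signalling through STAT factors induces. It read 13.10 and 12.98 in congenic pools 1 and 2 and 11.90 and 11.92 in wild-type pools 1 and 2. Both congenic pools were high by at least 1.06, with gaps of 0.12 and 0.016 within strains, and the difference was 1.13 ± 0.11 (2.19-fold higher in the congenic pools).

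Srpk1 encodes a kinase that phosphorylates SR splicing factors. It read 14.83 and 14.78 in the congenic pools and 14.07 and 14.10 in the wild-type pools, so the strains were 0.68 apart and pools within them at most 0.050. Glo1 encodes glyoxalase 1, which with glutathione clears methylglyoxal, a by-product of glycolysis. It read 14.56 and 14.67 in the congenic pools and 13.87 and 13.91 in the wild-type pools. The differences of these genes were nearly the same, 0.72 ± 0.077 for Srpk1 and 0.72 ± 0.084 for Glo1, each 1.65-fold higher in the congenic pools, and 386 and 385 probes differed by at least as much.

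Tmprss3, a membrane-anchored serine protease needed for hearing, read higher in both congenic pools. It read 11.01 and 10.87 in congenic pools 1 and 2 and 9.65 and 9.42 in wild-type pools 1 and 2. The wild-type values lie near the bottom of their arrays, above 7.70% and 3.45% of the values there, so the fold rests on dim signal. The difference was 1.40 ± 0.25 (2.64-fold), and it was not among the calls. Rsph1, part of the radial spoke head of motile cilia, read 11.54 and 11.98 in the congenic pools and 10.53 and 10.66 in the wild-type pools. The difference was 1.17 ± 0.21 (2.25-fold), and it was not among the calls either. The SE of Tmprss3 and Rsph1 were more than those of Glo1 or Srpk1, so a larger fold came with a less certain value. Part of this comes from the variance trend, which assigns dim probes a larger spread. Without it the SE were 0.13 for Tmprss3 and 0.18 for Rsph1, against 0.097 for Glo1 and 0.091 for Srpk1. At the wild-type signal of Tmprss3, between 9 and 10, 50.5% of probes in wild-type pool 1 were blank in wild-type pool 2.

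Rnf8, a ubiquitin ligase recruited to DNA double-strand breaks, read 13.42 and 13.38 in the congenic pools and 13.25 and 13.20 in the wild-type pools. The strains did not overlap, but the difference was 0.17 ± 0.093 (1.13-fold), and 44.8% of all probes differed by at least this much. Zfand3, a zinc finger protein of the AN1 type, read 14.68 and 14.49 in the congenic pools and 14.46 and 14.56 in the wild-type pools. Its difference of 0.070 ± 0.098 was under the gap between the congenic pools (0.19), and its sign turned without congenic pool 1 (-0.026). Rnf8 and Zfand3 thus lie between Pim1 and Glo1 in gene order with differences near or below the median absolute difference of all probes, 0.15.

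**Figure D3:**
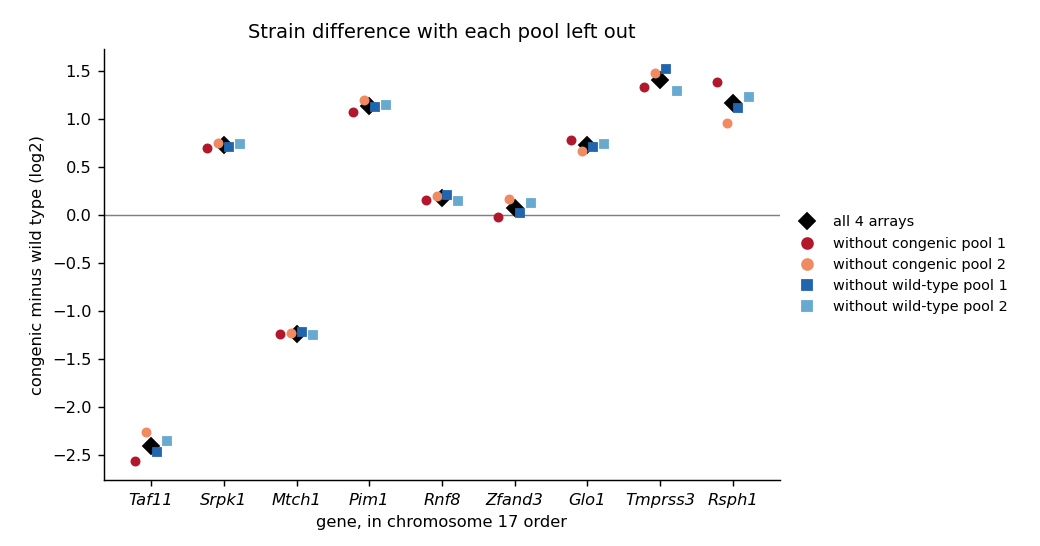
Strain difference (vertical axis, congenic minus wild type, log2) of the 9 genes measured throughout, from all 4 arrays (diamonds) and with each pool left out (circles and squares). The difference of Taf11 stayed between -2.56 and -2.25 and that of Mtch1 between -1.25 and -1.22, while Zfand3 crossed 0.

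Which of the 10 were called varied with single pools. A run without 1 pool leaves its strain with the other pool alone, which is assumed to vary like the pools of the other strain. Without congenic pool 1, without congenic pool 2 or without wild-type pool 1, Taf11 and Mtch1 alone of the 10 were called. Without wild-type pool 2, Glo1 alone lost its call. In a fit without the variance trend, Taf11 was the only one called. Over the runs with 1 pool left out, the difference of Glo1 lay between 0.67 and 0.78, that of Srpk1 between 0.70 and 0.75, that of Pim1 between 1.07 and 1.19, that of Tmprss3 between 1.29 and 1.52 and that of Rsph1 between 0.95 and 1.38.

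The genes between Taf11 and Rsph1 that were not picked are described next, by gene order. The reference places 95 genes there, 56 of them protein-coding. Of the 95, 42 had a probe, 26 had a value on all arrays, 8 had a value on some arrays and 8 on none. Leaving aside the genes described above, 17 were compared and 0 passed in limma, with 3 at an unadjusted p under 0.05 (Rab44, Ppil1 and Anks1). Over all probes, 15.8% had an unadjusted p under 0.05. Since every called gene of the interval was among the 10 that were picked, a count of 0 among the rest was fixed by the choice, and so in part was their narrower range. Among the 17, 7 differences were positive and 10 negative, the median was -0.067 against -0.0020 over all probes, and the median absolute difference was 0.16 against 0.15. Pools of the strains did not overlap for 9 of the 17 (52.9%), close to the 49.4% of all probes.

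**Figure D4:**
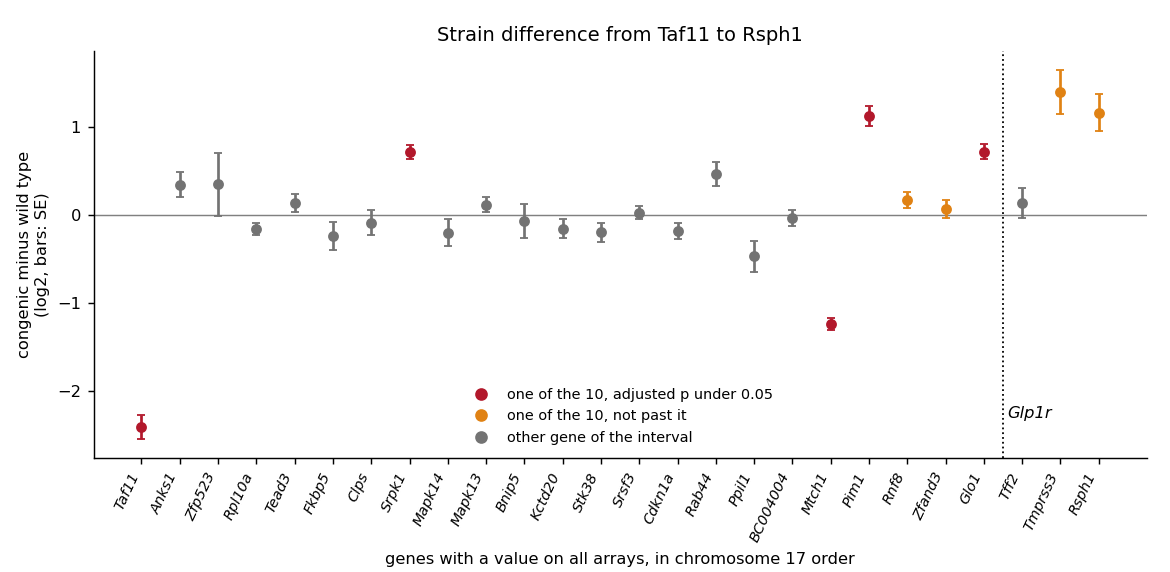
Strain difference (vertical axis, congenic minus wild type, log2; bars are the SE) of the 26 genes from Taf11 to Rsph1 with a value on all arrays, in gene order, with the place of Glp1r dotted. The 17 genes in grey lie between -0.47 and 0.46, while Taf11 and Mtch1 lie below and Srpk1, Pim1, Glo1, Tmprss3 and Rsph1 above that range.

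Between Taf11 and Srpk1 lie 6 measured genes, with differences from -0.23 (Fkbp5, a chaperone of steroid receptors) to 0.35 (Zfp523, a zinc finger protein). Between Srpk1 and Mtch1 lie 10, from -0.47 to 0.46. Rab44, a large member of the Rab GTPase family, marks the upper end, with 12.93 and 12.98 in the congenic pools and 12.64 and 12.34 in the wild-type pools (0.46 ± 0.14, limma adjusted p = 0.23). Ppil1, a spliceosomal peptidyl-prolyl isomerase, marks the lower end, with 11.56 and 11.40 in the congenic pools and 11.78 and 12.11 in the wild-type pools (-0.47 ± 0.17, limma adjusted p = 0.29). Of the stress kinase genes in this stretch, Mapk14 differed by -0.20 ± 0.15 (limma adjusted p = 0.56) and Mapk13 by 0.12 ± 0.085 (limma adjusted p = 0.53). The cell cycle inhibitor Cdkn1a differed by -0.18 ± 0.090 (limma adjusted p = 0.40). From Mtch1 to Glo1, the 5 genes measured on all arrays were all among the 10 described above, and Mtch1 was the only one of them with a negative difference on all 4 arrays together.

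Genes with a value on some arrays add little. With 1 blank allowed, Cmtr1, a cap methyltransferase, differed by -0.36 ± 0.22 (limma adjusted p = 0.49, no value in wild-type pool 1) and Pi16 by -0.13 ± 0.39 (limma adjusted p = 0.90, no value in wild-type pool 2). Srsf3, an SR splicing factor, had 2 probes that disagreed. The brighter one differed by 0.028 ± 0.075 (limma adjusted p = 0.87). The dimmer one, with no value in wild-type pool 2, differed by -0.97 ± 0.25 (limma adjusted p = 0.23).

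Just beyond the interval, none of the measured genes among 40 annotated genes on either side passed. These are 21 genes, and 0 were called in limma, with 6 at an unadjusted p under 0.05. Over all probes 0.475% were called and 15.8% had an unadjusted p under 0.05, so a count of 0 called among 21 genes tells little. The 6 of 21 are a larger share than that 15.8%, and this contrast was not tested. The nearest ones past Rsph1 were Slc37a1, a glucose-phosphate transporter (0.0027 ± 0.12), and Wdr4, a subunit of a transfer RNA methyltransferase (0.17 ± 0.16). Further out, Cbs, which starts the transsulfuration of homocysteine, read 0.78 ± 0.13 higher (limma adjusted p = 0.11) and the receptor gene Notch3 0.55 ± 0.10 higher (limma adjusted p = 0.13), and neither passed. Akap8l, also past Rsph1, differed by -0.32 ± 0.11 (limma adjusted p = 0.28). Before Taf11, Lemd2, an inner nuclear membrane protein, differed by -0.34 ± 0.088 (limma adjusted p = 0.19) and the ribosomal protein gene Rps10 by -0.34 ± 0.088 (limma adjusted p = 0.19). On that side Nudt3 went the other way (0.25 ± 0.071, limma adjusted p = 0.22).

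Genes that work with the 10 products were then examined from lists chosen by function. Of the list genes other than the 10, 80 had a value on all arrays and 0 passed in limma. Of these, 12 (15%) had an unadjusted p under 0.05, near the 15.8% of all probes, and their median difference was -0.028. Since 0.475% of all probes were called, a count of 0 among 80 genes, or in a shorter list below, tells little. The 10 genes were picked with their strain difference known, so a contrast with their list relatives was in part fixed by the choice.

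**Figure D5:**
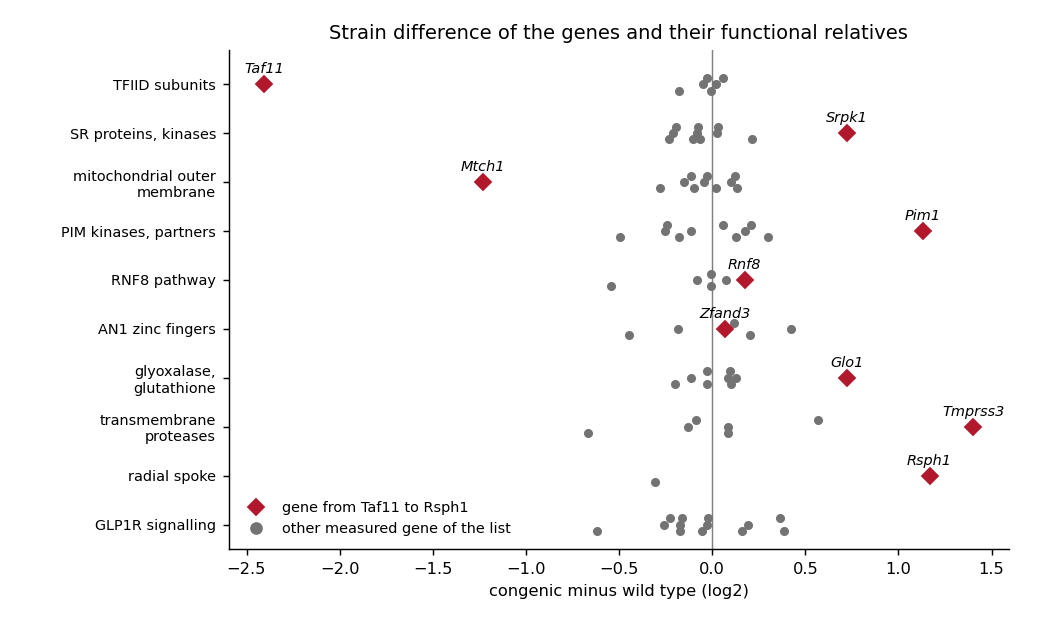
Strain difference (horizontal axis, congenic minus wild type, log2) of the genes measured throughout (diamonds) and of the other measured genes of each functional list (circles), with 1 row per list. The other TFIID subunits lie between -0.18 and 0.058 while Taf11 lies at -2.40.

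In the family of the GLP-1 receptor, 1 of 7 receptors with a probe was measured on all arrays, Vipr1, a receptor of vasoactive intestinal peptide (0.13 ± 0.23, limma adjusted p = 0.80). Besides Glp1r, single-array values were found for Glp2r (12.01, wild-type pool 2), the glucagon receptor gene Gcgr (8.67, wild-type pool 2) and the growth hormone-releasing hormone receptor gene Ghrhr (8.90, congenic pool 1). Vipr2 had values in congenic pool 2 (9.43) and wild-type pool 1 (10.38), and Adcyap1r1 had none. Isolated values were thus found for 4 receptors of this family, Glp1r included, and they came from 3 different arrays. Gcg, the proglucagon gene and source of GLP-1 itself, had no probe named by a single symbol, so the receptor's own ligand was not examined. Among the other ligands, Vip read 14.63 and 14.48 in the congenic pools and 14.24 and 14.26 in the wild-type pools (0.30 ± 0.088, limma adjusted p = 0.22). Sct, the secretin gene, differed by 0.16 ± 0.22 (limma adjusted p = 0.75), and Gip, another incretin hormone, read between 10.75 and 11.17 on 3 arrays, with no value in wild-type pool 1. The prohormone-cutting enzymes Pcsk1 (-0.075 ± 0.22, limma adjusted p = 0.89) and Cpe (-0.14 ± 0.10, limma adjusted p = 0.53) did not pass. Pcsk2 and Dpp4, also listed for the processing or breakdown of GLP-1, had no such probe either.

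Downstream of the receptor, 13 signalling genes were measured on all arrays, 0 passed in limma, while 2 had an unadjusted p under 0.05. Gnas, the stimulatory G protein alpha subunit, differed by 0.16 ± 0.097 (limma adjusted p = 0.47) and Creb1, a cyclic AMP-responsive transcription factor, by -0.026 ± 0.10 (limma adjusted p = 0.92). The regulatory subunit of protein kinase A encoded by Prkar1a read 16.10 and 16.04 in the congenic pools and 15.93 and 15.83 in the wild-type pools (0.19 ± 0.075, limma adjusted p = 0.30). Grk6, a kinase that turns off activated receptors, read 11.06 and 11.17 in the congenic pools and 11.51 and 11.95 in the wild-type pools (-0.62 ± 0.20, limma adjusted p = 0.25). Adcy6, an adenylyl cyclase, differed by -0.17 ± 0.079 (limma adjusted p = 0.35).

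The other 6 measured subunits of TFIID had differences between -0.18 and 0.058, against -2.40 for Taf11, and 0 passed in limma, with 0 at an unadjusted p under 0.05. Taf13, which pairs with Taf11 through histone folds, differed by -0.18 ± 0.11 (limma adjusted p = 0.47), Taf7 by 0.058 ± 0.17 (limma adjusted p = 0.89) and Tbp, the TATA-binding protein, by -0.048 ± 0.21 (limma adjusted p = 0.93). Of 10 other measured mitochondrial outer membrane genes 0 passed in limma, while 1 had an unadjusted p under 0.05, Vdac1, a voltage-dependent anion channel (-0.28 ± 0.074, limma adjusted p = 0.20). Mtch2, the close relative of Mtch1, differed by 0.14 ± 0.15 (limma adjusted p = 0.67), against -1.23 for Mtch1.

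Among 10 other SR proteins and their kinases 0 passed in limma and 1, Srsf6, had an unadjusted p under 0.05 (-0.23 ± 0.095, limma adjusted p = 0.31). Srpk2, the second kinase of this kind, differed by -0.10 ± 0.10 (limma adjusted p = 0.64), against 0.72 for Srpk1. Among 10 other genes of PIM kinases and their regulators or substrates 0 passed in limma, while 3 had an unadjusted p under 0.05. Pim3 read 13.98 and 13.82 in the congenic pools and 14.34 and 14.45 in the wild-type pools (-0.50 ± 0.095, limma adjusted p = 0.14), a difference opposite in sign to that of Pim1. Bad, a death-promoting PIM substrate, differed by -0.25 ± 0.10 (limma adjusted p = 0.31), and Socs3, a feedback inhibitor of cytokine signalling, by 0.21 ± 0.074 (limma adjusted p = 0.28). Stat3 (-0.24 ± 0.15, limma adjusted p = 0.48) and Myc (0.058 ± 0.095, limma adjusted p = 0.79) did not pass.

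Of 8 other genes of methylglyoxal and glutathione metabolism 0 passed in limma, with 0 at an unadjusted p under 0.05 and differences between -0.20 and 0.13. Akr1b8, an aldo-keto reductase, had the smallest p (0.13 ± 0.085, limma adjusted p = 0.50). Hagh, which encodes glyoxalase 2, the next enzyme after Glo1 and also a chromosome 17 gene, differed by 0.098 ± 0.076 (limma adjusted p = 0.56). Gclm, a subunit of the enzyme that starts glutathione synthesis, differed by 0.099 ± 0.068 (limma adjusted p = 0.51). In the RNF8 pathway, Ube2n, the ubiquitin-conjugating enzyme that works with Rnf8, read 13.52 and 13.68 in the congenic pools and 14.13 and 14.15 in the wild-type pools (-0.54 ± 0.093, limma adjusted p = 0.12), and 0 of 5 other genes passed in limma, with 1 (Ube2n) at an unadjusted p under 0.05. Among 5 relatives of Zfand3 0 passed in limma, while 1 had an unadjusted p under 0.05, Zfand5 (-0.44 ± 0.10, limma adjusted p = 0.18).

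Among 6 other measured transmembrane serine proteases and relatives of Tmprss3 0 passed in limma, with 2 at an unadjusted p under 0.05. Tmprss6, the liver protease of iron regulation, differed by 0.57 ± 0.20 (limma adjusted p = 0.27) and hepsin (Hpn) by -0.67 ± 0.20 (limma adjusted p = 0.24). Of 10 other radial spoke and axonemal genes with a probe, 1 was measured on all arrays, Rsph9 (-0.31 ± 0.25, limma adjusted p = 0.58), also a chromosome 17 gene. Of 4 ciliated cell markers with a probe, 0 were measured on all arrays: Foxj1 had values on 3 arrays, between 10.75 and 11.26, Tekt1 on 1, and Tekt2 and Ccdc40 on none.

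To see which other genes shared these patterns, the 3 named probes closest to each of the 9 measured genes were found from their 4 values after subtracting the mean (Euclidean distance over 4 arrays), a description in which the strain difference weighs most. The closest to Mtch1 were Vars, H2-Aa and Plin3 (distances 0.085 to 0.11), and the closest to Taf11 were D17H6S56E-5, Cd2ap and Igfals (0.27 to 0.54). All 6 are chromosome 17 genes outside the interval, and the share of chromosome 17 genes among all named probes was not counted here. The closest to Glo1 were Prss3 (0.056), Stag2 (0.084) and Tmem252 (0.097), none of them on chromosome 17. Those of Srpk1 were Prss3 (0.074), Nfil3 (0.088) and Glo1 (0.11), and those of Pim1 were Amy2a5 (0.061), Thbs2 (0.094) and Eme1 (0.13), of which Thbs2 is on chromosome 17. Tmprss3 was closest to Hpx, Dynlt1b and Mat1a (0.099 to 0.19) and Rsph1 to Mrvi1, Prss34 and Cpxm2 (0.054 to 0.12), among which Dynlt1b and Prss34 are on chromosome 17. Rnf8 was closest to Map3k4, Ubac1 and Polr3k (0.0090 to 0.022) and Zfand3 to Sfpq, Alcam and Actl6a (0.013 to 0.022). Of these, Map3k4 alone is on chromosome 17.

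Most markers of the stomach were measured on all arrays. The acid pump genes Atp4a and Atp4b of parietal cells read between 18.74 and 19.77 and the surface mucous gene Gkn2 read 21.25 on every array, the shared maximum, whereas Muc6 of neck cells read between 9.51 and 10.89. Of 5 genes listed as parietal markers 0 passed in limma, with 1 (Atp4a) at an unadjusted p under 0.05 and a median difference of 0.041. The largest difference was that of Cblif (0.64 ± 0.33, limma adjusted p = 0.41), which was low in wild-type pool 1 (19.02) alone. Cblif encodes intrinsic factor, which in the mouse comes mainly from chief cells, so its place on the parietal list is doubtful. Of 2 measured chief cell markers, Pga5 (0.24 ± 0.11) and Bhlha15 (0.29 ± 0.094), 0 passed in limma, with 1 (Bhlha15) at an unadjusted p under 0.05. Differences of all 6 gastric endocrine markers were negative, from -0.59 (Gast) to -0.075 (Sst), and 0 passed in limma, with 3 at an unadjusted p under 0.05. Differences of all 7 smooth muscle markers were negative as well, from -0.31 to -0.037, and 0 passed in limma, with 3 at an unadjusted p under 0.05. Some markers of other tissues passed. Of 11 measured exocrine pancreas genes 9 passed with higher signal in the congenic pools (limma, adjusted p under 0.05), with a median difference of 2.49 and a highest of 3.23 (Cela2a). Their log2 summed signal, in which the bright Clps weighs most, was 20.62 and 20.44 in the congenic pools against 19.99 and 20.20 in the wild-type pools. Amy2a5, the probe closest to Pim1 in its pattern, is one of these pancreas genes. Prss3, closest to Glo1 and to Srpk1, encodes a trypsin, and Hpx, closest to Tmprss3, encodes a plasma protein of the liver. Neither was on the marker lists, nor were the other closest probes of Pim1, Glo1, Srpk1 and Tmprss3. Of 6 measured liver genes 1, Alb, passed with higher signal (1.52 ± 0.15, limma adjusted p = 0.020), with a median difference of 0.76 and summed signals of 18.74 and 18.64 against 18.57 and 18.58. Of 8 measured skeletal muscle genes 3 passed with lower signal, with a median difference of -1.13 and summed signals of 16.30 and 16.34 against 17.31 and 17.38. Clps, the acinar gene for colipase, lies inside the interval between Taf11 and Srpk1 and read 19.82 and 19.50 in the congenic pools and 19.62 and 19.87 in the wild-type pools (-0.086 ± 0.14, limma adjusted p = 0.79). The part of these tissues in the values of Pim1, Glo1, Tmprss3 and the other genes described here was not tested, and in whole stomach RNA fewer cells of a type cannot be told apart from less RNA per cell. Of 5 neuronal markers with a probe, Elavl4, Uchl1 and Prph were measured on all arrays and differed by 0.11 ± 0.15, -0.011 ± 0.14 and 0.16 ± 0.13, with Ret and Snap25 blank. Of 5 islet markers with a probe, 4 including the insulin gene Ins2 were blank on all arrays.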

How the data were processed

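Per the labels' protocols, stomach RNA was prepared with TRIzol, labelled with digoxigenin and read by chemiluminescence on Applied Biosystems arrays. The authors deposited a log2 signal for each probe on each array. How it was normalized and when a cell was left blank is not given in the sources used here. The base of the logarithm was read from the spread of the values (6.73 to 21.2), and all differences depend on it. The arrays share their maximum, and their medians over the 13475 probes with a value on all arrays lay between 12.819 and 12.824, so nothing further was normalized. Values per array numbered between 16320 and 16954. The sequence read by each probe, and any CAST variant in it, was not analysed here.

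Probes were named by the platform annotation (14411 of 33012 with 1 symbol, 247 with several, left unnamed, and 18354 with none), and 14402 matched the reference by gene ID. Strains were compared with limma 3.58.1 under R 4.3.3 (eBayes after lmFit, variance trend on, two-sided, Benjamini-Hochberg over all 13475 probes, threshold 0.05), with no filter on dim probes, and tested on simulated data. Groups and pool numbers came from the sample titles. Each SE and p-value rests on a variance that joins the spread between a probe's own pools with the trend over all probes. That trend carried 3.97 degrees of freedom, against 2 from the probe's own pools. The spread is between pools, not between single animals. Where a gene had several probes, the brightest measured throughout was used.

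The 10 genes and the functional lists were chosen with earlier results of these data known. Named were every one of the 10, interval genes with a value, the nearest measured gene on each side of Glp1r, up to 4 genes of smallest p in a list and the 3 closest patterns. Chosen outside this rule, after their values were seen, were the 4 genes whose sequences are printed, the genes beyond the interval, Mtch2, Srpk2, Gnas, Creb1, Stat3, Myc, and the receptors and Gip with blank cells. Also outside it, Gcg, Pcsk2 and Dpp4 are named as list genes with no probe of 1 symbol. Alternatives were the replicate block, 2 normalizations, a filter on dim probes, other variance models, each pool left out, 1 blank per probe and other interval ends. Figures used matplotlib 3.10.9.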

Additional observations from a re-analysis of the deposited data

How the results depend on the processing

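The count of probes called, 64, was 35 with the replicate number as a block, 20 without the variance trend and between 15 and 168 with 1 pool left out (15 and 27 without the first and the second congenic pool, and 168 at the top without wild-type pool 2). Of the 26 genes from Taf11 to Rsph1, and of the 10 genes described, 5 were called, and 2 with the replicate block, 1 without the variance trend and between 2 and 4 with 1 pool left out. Quantile normalization, median centring, a robust variance and 1 blank per probe left 5 of the 10 called, and leaving out dim probes 4, with Pim1 not tested there. No other gene of the interval and no other functional list gene was called under any of these alternatives, nor in the shorter or the wider interval, though every called gene of the interval had been picked. The pool numbers are not stated to pair the samples, and deviations of same-numbered pools correlated at -0.0643 over 13475 probes, so the block is given only as an alternative. Of the differences of the 9 measured genes under the alternatives, which the block, variance and filter settings leave as they are by construction, 1 turned its sign, that of Zfand3 without congenic pool 1 (-0.026, in a range up to 0.17 without congenic pool 2). No alternative gives a difference for Glp1r, with its single value.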
